A study of Mus musculus with 6 samples.

Results

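The neuronal cluster n16-M/TC-2 of the mouse olfactory bulb is 1 of 3 clusters of excitatory projection neurons, the mitral and tufted (M/T) cells, that the authors separated among the bulb's neurons. Its members were taken from the deposited annotation of the neurons, in which every cell carries 1 of 18 cluster names. The cluster held 116 cells of 21746 annotated neurons and of 51426 annotated cells in all, which was 10.2% of the 1133 M/T cells. The other M/T clusters held 90 cells (n15-M/TC-1) and 927 cells (n17-M/TC-3). The cells came from 6 droplet libraries, each a pool of olfactory bulbs of 3 C57BL/6NJ mice that were 14 weeks old at collection. Of these, 2 control libraries were labelled as unmanipulated, 2 came from bulbs on the side of an occluded naris and 2 came from mice trained on odor discrimination, with both manipulations lasting 6 weeks. In each condition, male mice made up replicate 1 and female mice replicate 2, so that the 2 libraries of a condition differ in sex as well as in animals. The labels give no manipulation for the control bulbs, and the study's text names both naive mice and the unblocked side of naris-occluded mice as controls.

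Mitral and tufted cells receive the axons of olfactory sensory neurons in the glomeruli and carry odor information to the olfactory cortex, releasing glutamate. Mitral cells lie in 1 thin layer and send a single main dendrite to a glomerulus, whereas tufted cells lie closer to the surface, and the external tufted cells border the glomeruli themselves. Granule and periglomerular cells, which release GABA, inhibit them through synapses on their dendrites. The T-box transcription factor Eomes (also called Tbr2) and the protocadherin-like protein encoded by Cdhr1 mark these excitatory cells.

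The 6 libraries gave 25 and 19 n16 cells (control 1 and 2), 22 and 21 (naris occluded 1 and 2), and 21 and 8 (trained 1 and 2). Expression levels are unique molecular identifiers (UMIs, counted molecules) summed over the n16 cells of a library and scaled to a common total of 1e+06 counts (CPM), and a mean ± SD is over the 6 libraries. The sums were 42045 and 46658 UMIs (control), 58258 and 38320 UMIs (naris occluded) and 47953 and 7332 UMIs (trained). A single UMI was thus worth 17.2 to 26.1 CPM in 5 libraries and 136 CPM in the library trained 2. The deepest cell of a library held 22.5% and 25.5% (control), 25.1% and 17.5% (naris occluded) and 16.4% and 17.5% (trained) of its n16 counts. The deepest of all, in naris occluded 1, had 14633 UMIs. The neurons of a library numbered 2777 to 5056, with 3863883 to 6002502 UMIs. No barcode occurred in 2 libraries within n16, and 2 of the 116 barcodes recurred among other neurons.

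Both markers of the class were present in n16. Eomes was at 832 and 750.1 (control), 584 and 1018 (naris occluded) and 980.1 and 273 (trained) CPM. The mean of 739 ± 278 CPM lay above the 139 ± 85.1 CPM of n15 and the 175 ± 72.5 CPM of n17, although the library trained 2, with 2 Eomes UMIs, fell within the range of n17. Cdhr1 was at 975.1 and 836 (control), 532 and 287 (naris occluded) and 396 and 1500.3 (trained) CPM. Its mean of 754 ± 449 CPM lay between the 520.1 ± 215 CPM of n15 and the 2115 ± 267 CPM of n17, the highest of all clusters. Because the clusters were made from these same counts, a difference between clusters is a description throughout and was given no test.

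Of 14 measured genes of a list of mitral and tufted identity, 3 were at least 2-fold higher in n16 than in both other M/T clusters (Eomes, Slc17a6 and Neurod1) and 4 were lower (Slc17a7, Reln, Ntng1 and Nefl), where 2.69% and 3.78% of all 5606 measured genes were. The list median was 0.65 against n15 and -1.27 against n17 on the log2 scale, and 5 of the 14 had their highest mean of the 18 neuronal clusters in n16, as did 8.76% of all measured genes. Reln, the gene of the secreted glycoprotein reelin, gave 8 UMIs in 7 cells, at 27.9 ± 19.1 CPM against 708 ± 156 CPM in n15 and 1436 ± 138 CPM in n17. The transcription factor gene Tbx21 gave 1 UMI in n16, where n15 had 31.9 CPM and n17 23.0 CPM. The counting error of this UMI over all n16 libraries together (Poisson interval of 0.105 to 23.2 CPM) included the n17 mean. The depth of n16 thus could not separate Tbx21 from its level in n17. Lhx1 and Lhx5, also known from mitral cells, gave 0 UMIs, but they reached only 7.26 and 4.84 CPM in n17 and 0 in n15, so that the depth of n16 could not separate them. Tbr1 gave 12 UMIs, at 65.8 ± 64.8 CPM against 73.0 ± 12.7 CPM in n17. The neurofilament genes Nefl (3 UMIs) and Nefm (0 UMIs) were low, against 54.2 and 18.9 CPM in n15 and 166 and 72.3 CPM in n17. For Nefm, the n15 level was only 1.51-fold above a floor of 3 UMIs over all n16 libraries together (12.5 CPM). A 2-fold difference of Nefm from n15 thus lay beyond the depth of n16.

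**Figure D1:**
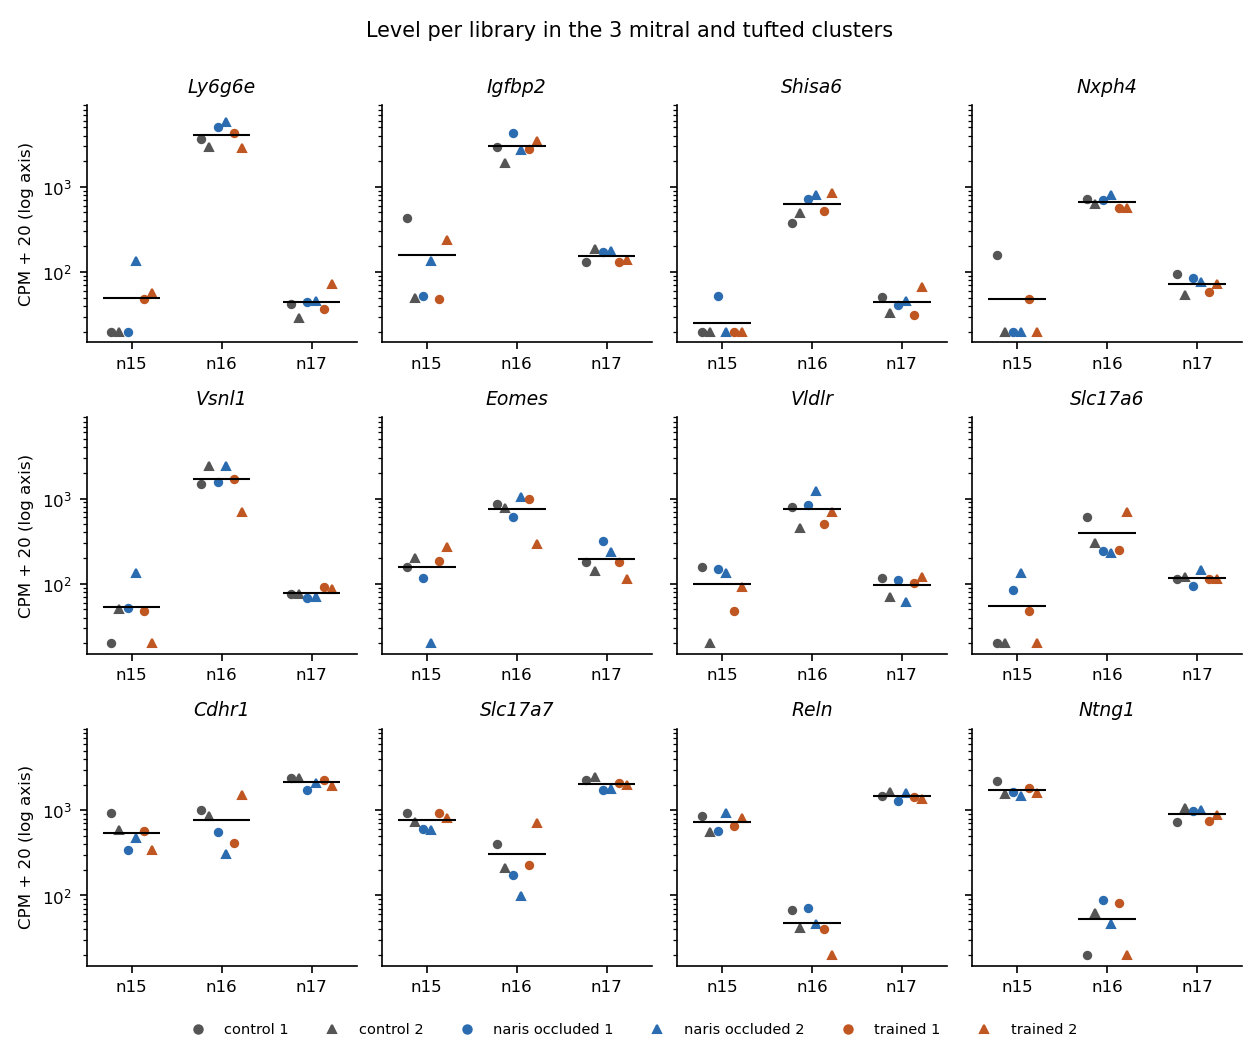
Level of 12 genes in the 3 M/T clusters, as CPM + 20 on a log axis, so that a level of 0 plots at 20. Each point is 1 library (colour for condition, circles for replicate 1, triangles for replicate 2), and each bar is the mean of 6 libraries. The libraries of n16 stand clear of those of n15 and n17 for Ly6g6e and Igfbp2, while for Reln and Ntng1 they lie below them.

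Cluster n16 was set apart by genes whose level was lower in every other neuronal cluster. The 15 genes with the largest ratio of the n16 mean to the highest mean of the other 17 clusters (after adding 20 CPM to both) are described here. Of these, 13 were at least 4-fold above every other neuronal cluster, and 19 genes were when the library trained 2 was left out. These genes were chosen by the very comparison in which they differ, so their ratios only describe the cluster.

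For 8 of the 15 leading genes, the RefSeq promoter table (build GRCm38.p6) held an entry, 11 promoters in all, each from 250 bases before to 50 bases after a transcription start. Since Neurod1, a basic helix-loop-helix factor, and Eomes, a T-box factor, were among the leading genes, their sites were looked for in these promoters on both strands. The first motif searched was the E-box CAGATG. The second was GGTGTG, which is the core of the T-box site. On the opposite strand a match appears as the reverse complement of these letters. The E-box occurred in 2 of the 11 promoters, where 17.2% of 32851 promoters held it, and the T-box core in 1 of 11, where 19.0% held it. All promoters of leading genes with a match are printed here 5′ to 3′ on the gene's strand, with the matches in capitals. A match is no evidence that a factor binds there. The 3 promoters lie at chr11:89073591-89073890 on the plus strand (Gm525), chr12:11436529-11436828 on the minus strand (Vsnl1, first start) and chr12:11435602-11435901 on the minus strand (Vsnl1, second start). No match overlapped another.
Gm525: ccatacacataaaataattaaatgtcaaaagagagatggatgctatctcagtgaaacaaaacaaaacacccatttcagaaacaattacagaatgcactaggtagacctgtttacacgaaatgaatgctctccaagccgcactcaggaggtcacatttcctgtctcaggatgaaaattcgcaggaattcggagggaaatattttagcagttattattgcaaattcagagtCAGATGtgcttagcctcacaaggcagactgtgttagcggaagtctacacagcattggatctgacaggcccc
Vsnl1, first start: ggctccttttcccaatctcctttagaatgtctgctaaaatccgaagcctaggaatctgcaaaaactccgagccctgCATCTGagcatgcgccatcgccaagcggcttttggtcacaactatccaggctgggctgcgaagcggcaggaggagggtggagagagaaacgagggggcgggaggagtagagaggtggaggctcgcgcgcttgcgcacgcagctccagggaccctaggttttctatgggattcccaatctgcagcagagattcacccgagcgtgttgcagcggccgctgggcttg
Vsnl1, second start: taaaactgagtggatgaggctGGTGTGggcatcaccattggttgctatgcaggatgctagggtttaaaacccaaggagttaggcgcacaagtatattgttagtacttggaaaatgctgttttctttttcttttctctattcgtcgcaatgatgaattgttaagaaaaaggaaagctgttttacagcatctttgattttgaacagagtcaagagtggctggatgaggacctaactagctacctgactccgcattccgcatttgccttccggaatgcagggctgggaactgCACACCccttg

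Ly6g6e, which encodes a small membrane-anchored protein of the Ly6 family, had the largest ratio, 6.19 on the log2 scale. It was at 3591 and 2936 (control), 5064 and 5689 (naris occluded) and 4212 and 2864 (trained) CPM. The mean of 4059 ± 1149 CPM stood against 36.1 ± 24.4 CPM in the next cluster, the external plexiform layer interneurons n18, and the lowest n16 library lay far above the highest of n15 (113 CPM) and n17 (52.8 CPM). Igfbp2, a secreted binding protein of insulin-like growth factors, was at 2878 and 1907 (control), 4239.8 and 2714 (naris occluded) and 2774 and 3409.7 (trained) CPM. Its mean of 2987 ± 780.4 CPM was 4.24 above n15 on the log2 scale, where it was 139 ± 154 CPM. Every n16 library exceeded every n15 and n17 library for both genes, as for 0.945% of all measured genes.

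Among the other membrane proteins, Shisa6, an auxiliary subunit of AMPA receptors, was at 357 and 472 (control), 704 and 783 (naris occluded) and 500.5 and 818 (trained) CPM. It gave 138 UMIs in n16 and 1 UMI in n15, and the next cluster, n18, had 26.7 ± 23.5 CPM. Vldlr, a receptor for reelin and for lipoproteins, had a mean of 733 ± 279 CPM and a range of 429 to 1200.4 CPM, against 83.4 ± 55.3 CPM in the granule cell cluster n09-GC-3. The classical cadherin Cdh4 was at 536 ± 126 CPM, against 50.4 ± 16.8 CPM in n17. Tmem132d (310.0 ± 81.5 CPM, 71 UMIs) gave 2 UMIs in n15 and 1 UMI in all 927 cells of n17. The n16 libraries did not overlap those of n15 and n17 for any of these 4 genes, nor for Tpbgl (151 ± 71.3 CPM). Of all measured genes, 0.945% had every n16 library above those of n15 and n17.

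The secreted proteins included Nxph4, a neurexophilin that binds neurexins, with little spread between libraries. It was at 689.7 and 600.1 (control), 687 and 783 (naris occluded) and 542 and 546 (trained) CPM, against 53.2 ± 15.1 CPM in n17. Ctgf, a matrix-associated protein known from external tufted cells, was more variable, with 689.7 and 514 (control), 429 and 209 (naris occluded) and 250.2 and 955 (trained) CPM, and yet its lowest library lay above the highest n17 library (88.8 CPM). Vsnl1, a neuronal calcium sensor, had 1451 and 2379 (control), 1528 and 2401 (naris occluded) and 1668 and 682 (trained) CPM. It was nearly absent from n15 (33.8 ± 41.5 CPM) and n17 (57.9 ± 9.24 CPM), whereas the granule cell cluster n03-GC-1 had 317 ± 40.3 CPM.

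Neurod1 was the transcription factor with the largest ratio (3.21 on the log2 scale), and its level varied widely between libraries. It was at 262 and 343 (control), 858 and 1331 (naris occluded) and 209 and 136 (trained) CPM, and both naris-occluded libraries were above the other 4. The library trained 2, with 1 Neurod1 UMI, overlapped n15, so that Neurod1 was the only gene of the 12 highest against n15 and n17 whose libraries overlapped. The related Neurod2 was at 92.5 ± 32.6 CPM in n16 and 6.08 ± 9.96 CPM in n17. The 15 were completed by Casp1, an inflammatory protease, with 255 ± 71.2 CPM and 0 UMIs in n15, by the lipid kinase gene Pip5k1b with 342 ± 124 CPM, and by Gm525 with 403 ± 354 CPM, which ranged from 83.4 CPM in trained 1 to 1050.2 CPM in control 2. Just inside the limit of the 15 were Eomes and Tpbgl at 1.96 and 1.91, and just outside were Stard5 and Chst1 at 1.79 and 1.78.

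Against the other 2 M/T clusters alone, 151 of 5606 measured genes (2.69%) were at least 2-fold higher in n16 than in both, and 212 (3.78%) were at least 2-fold lower. At least 4-fold, the counts were 31 (0.553%) higher and 34 (0.606%) lower, and 491 genes (8.76%) had their highest mean of the 18 clusters in n16. A gene counted as measured with at least 50 CPM in 1 of the 3 clusters. The lowest n16 library lay above every n15 and n17 library for 53 of the 5606 genes (0.945%), and the highest n16 library lay below all of them for 37 (0.66%). Over all measured genes, the median log2 ratio was -0.21 against n15 and 0.05 against n17. The 12 highest genes added Gm12027 and the T-type calcium channel gene Cacna1i to the leading genes, and for 11 of the 12 the n16 libraries stood above all others.

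Among the 12 genes that were lowest in n16 relative to the other M/T clusters, Ntng1, a netrin-G that acts as a synaptic adhesion protein, gave 10 UMIs in n16, at 33.4 ± 29.9 CPM, against 1711 ± 272 CPM in n15 and 885 ± 145 CPM in n17. Ms4a15 gave 2 UMIs in n16, and its level was 514 ± 151 CPM in n15 and 478 ± 62.3 CPM in n17. The phosphate transporter gene Slc20a1 was at 51.6 ± 42.3 CPM against 778 ± 81.4 CPM and 444 ± 53.1 CPM, and the proline transporter gene Slc6a7 at 27.9 ± 34.95 CPM against 405 ± 168 CPM and 319 ± 55.4 CPM. Together with Reln and Npr1 (1 UMI), these were the 6 of 12 genes for which no library overlapped, as for 0.66% of all measured genes in the lower direction. The 12 were chosen by their ratio to the same clusters, so this only describes them. The other 6 overlapped because 1 or more n15 libraries were also at 0. In n16 they gave 3 UMIs (Lrrc55), 2 UMIs (Ndnf), 1 UMI each (Scube1, Clstn2, Kitl) and 0 UMIs (Mdga1). Mdga1 was at 174 CPM in n15 and 201 CPM in n17. Set against a floor of 3 UMIs over all n16 libraries together (12.5 CPM), it was at least 13.9-fold lower in n16.

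Members of the reelin pathway differed in both directions. The receptor gene Vldlr was 733 ± 279 CPM in n16, 79.9 ± 56.7 CPM in n15 and 76.7 ± 24.9 CPM in n17, and Dab1, the adaptor that carries the signal inside the cell, was at 96.9 ± 38.6, 38.1 ± 32.7 and 25.2 ± 14.2 CPM. The ligand gene Reln had the opposite order. Lrp8, the second reelin receptor, gave 5 UMIs in n16. Of 4 measured genes of the pathway, 2 were thus at least 2-fold higher than in both other clusters and 1 was lower (2.69% and 3.78% of all measured genes).

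Glutamate receptor genes were counted by list. Of 10 measured auxiliary subunits of AMPA and kainate receptors, 4 were at least 2-fold higher than in n15 and n17 and 0 were lower (2.69% and 3.78% of all measured genes), with a list median of 0.42 against n15 and 1.15 against n17 on the log2 scale. Shisa9 had 777 ± 182 CPM against 118 ± 58.9 and 135 ± 16.3 CPM. Cnih2, a cornichon protein that slows AMPA receptor deactivation, had 312 ± 79.0 CPM against 49.7 ± 46.9 and 107 ± 25.3 CPM. Cacng2, also called stargazin, had 267 ± 82.9 CPM against 37.3 ± 50.9 and 66.9 ± 23.4 CPM. For Shisa6, Shisa9, Cnih2 and Cacng2 alike, no n16 library overlapped the other M/T clusters, as for 0.945% of all measured genes in the higher direction.

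Of 11 measured ionotropic receptor subunits, 1 was at least 2-fold higher than in both clusters and 1 was lower (2.69% and 3.78% of all measured genes). The AMPA receptor subunit gene Gria4 was at 595 and 729 (control), 669 and 600.2 (naris occluded) and 646 and 1227 (trained) CPM, and all 6 libraries lay above the highest of n15 (395 CPM) and n17 (191 CPM). Gria2 lay between them, at 1249 ± 538 CPM in n16, 2166 ± 210.0 CPM in n15 and 648 ± 91.8 CPM in n17. The lower gene was Grid1, with 4 UMIs in n16. Among 4 measured metabotropic receptors, Grm7 (4 UMIs) and Grm8 (0 UMIs), receptors of presynaptic terminals, were at least 2-fold lower than in both clusters. Of all measured genes, 3.78% were lower.

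The 2 vesicular glutamate transporters ran in opposite directions. Slc17a6, the gene of VGLUT2, was at 595 and 279 (control), 223 and 209 (naris occluded) and 229 and 682 (trained) CPM. Its mean of 369 ± 211 CPM compared with 34.2 ± 46.2 CPM in n15 and 97.0 ± 16.7 CPM in n17, without overlap. Slc17a7, the gene of VGLUT1, was at 381 and 193 (control), 154 and 78.3 (naris occluded) and 209 and 682 (trained) CPM, against 745 ± 153 CPM in n15 and 2038 ± 287 CPM in n17. The highest library for both genes was trained 2, with 5 UMIs of each. Of 22 measured genes of the release machinery, Slc17a6 was the only one at least 2-fold higher than in both clusters, and 5 were lower (2.69% and 3.78% of all measured genes). These were Slc17a7, the calcium sensor gene Syt7 (99.7 ± 56.9 CPM against 841 ± 486 and 676 ± 80.2 CPM), Syn2 (5 UMIs), the active zone gene Pclo (101 ± 59.3 CPM against 511 ± 119 and 231 ± 60.9 CPM) and Sv2b. The general release genes Syt1 and Snap25 were measured at 1638 ± 387 and 982 ± 309.6 CPM.

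Several peptide genes were higher in n16. Of 16 measured neuropeptide and dense-core vesicle genes, 4 were at least 2-fold higher than in both other clusters (Nmb, Pam, Vgf and Cartpt) and 0 were lower. Of all measured genes, 2.69% were higher and 3.78% lower. Nmb, the gene of neuromedin B, was at 2236 and 4544 (control), 875 and 1122 (naris occluded) and 1877 and 3273 (trained) CPM. Its mean of 2321 ± 1384 CPM compared with 447 ± 323 CPM in n15 and 839.7 ± 50.1 CPM in n17, but the lowest n16 library, naris occluded 1, lay within the range of n17. Pam, which amidates peptides, had 538 ± 79.6 CPM against 229.5 ± 173 and 236 ± 104 CPM. Cck, the gene of cholecystokinin and known from tufted cells, was at 4947 and 4908 (control), 3879 and 2871 (naris occluded) and 3795 and 3137 (trained) CPM, against 1345 ± 988 CPM in n15 and 2706 ± 619 CPM in n17, the next highest cluster, with overlapping ranges. Vgf (32 UMIs) and Cartpt (24 UMIs) were higher than in n15 and n17 but well below other neuronal clusters, which reached 1085 and 718 CPM.

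Insulin-like growth factor genes also split. Igf1 was at 644 ± 395 CPM against 121 ± 76.4 CPM in n15 and 224 ± 46.4 CPM in n17, and Igfbp2 was high as given above. The receptor gene Igf1r was at 33.9 ± 23.1 CPM against 191 ± 100.1 and 189 ± 21.4 CPM, and Igfbp5, a second binding protein, at 41.9 ± 32.5 CPM against 182 ± 154 and 483 ± 59.5 CPM, the lowest of the 18 clusters. Of 7 measured genes, 2 were thus at least 2-fold higher and 2 lower than in both clusters (2.69% and 3.78% of all measured genes).

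Ion channel lists showed few differences beyond single members, where 2.69% of all measured genes were at least 2-fold higher than in both clusters and 3.78% lower. Among 10 measured calcium channel genes, Cacna1i was at 361 ± 169 CPM against 14.6 ± 23.8 and 19.4 ± 11.04 CPM without overlap, and the auxiliary subunit gene Cacnb4 was lower, at 139 ± 75.0 CPM against 669 ± 148 and 456 ± 123 CPM, also without overlap. Of the sodium channel genes, Scn2a1 (23 UMIs) was lower, and of the potassium channel genes, Kcnh7 was higher. Of 7 GABA-A receptor subunits, Gabrb1 alone was at least 2-fold lower than in both clusters and 0 were higher. Of 9 sodium pump genes, 0 were higher and Fxyd1 and Fxyd7 were lower, with Atp1b1 at 4687 ± 1520.0 CPM in n16 and 4063 ± 682 CPM in n17.

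Adhesion and guidance genes held members in both directions, as did all measured genes (2.69% higher and 3.78% lower). Of 10 measured cadherins, Cdh4 was higher than in both clusters and 3 were lower (Cdh13, Pcdh9 and Pcdh10, with 0, 5 and 13 UMIs). Cdh13 was at 21.9 CPM in n15, only 1.75-fold above the floor of 3 UMIs over all n16 libraries (12.5 CPM). Its 2-fold difference from n15 thus lay beyond the depth of n16. Of 17 guidance genes, Efnb3, the gene of ephrin-B3, was higher, at 547 and 557 (control), 566 and 469.7 (naris occluded) and 500.5 and 682 (trained) CPM against 115 ± 114 CPM in n15 and 42.3 ± 25.2 CPM in n17, and Ntng1 and the netrin receptor gene Unc5d (1 UMI) were lower. Of 19 secreted matrix proteins and synapse organizers, Ctgf, Nxph4, Hapln1 and Spon1 were higher and Hapln4, Nrxn3 and Nptx2 were lower. Nrxn3, which encodes a presynaptic neurexin, was at 169 ± 185 CPM against 787 ± 315 CPM in n15 and 933 ± 134 CPM in n17.

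**Figure D2:**
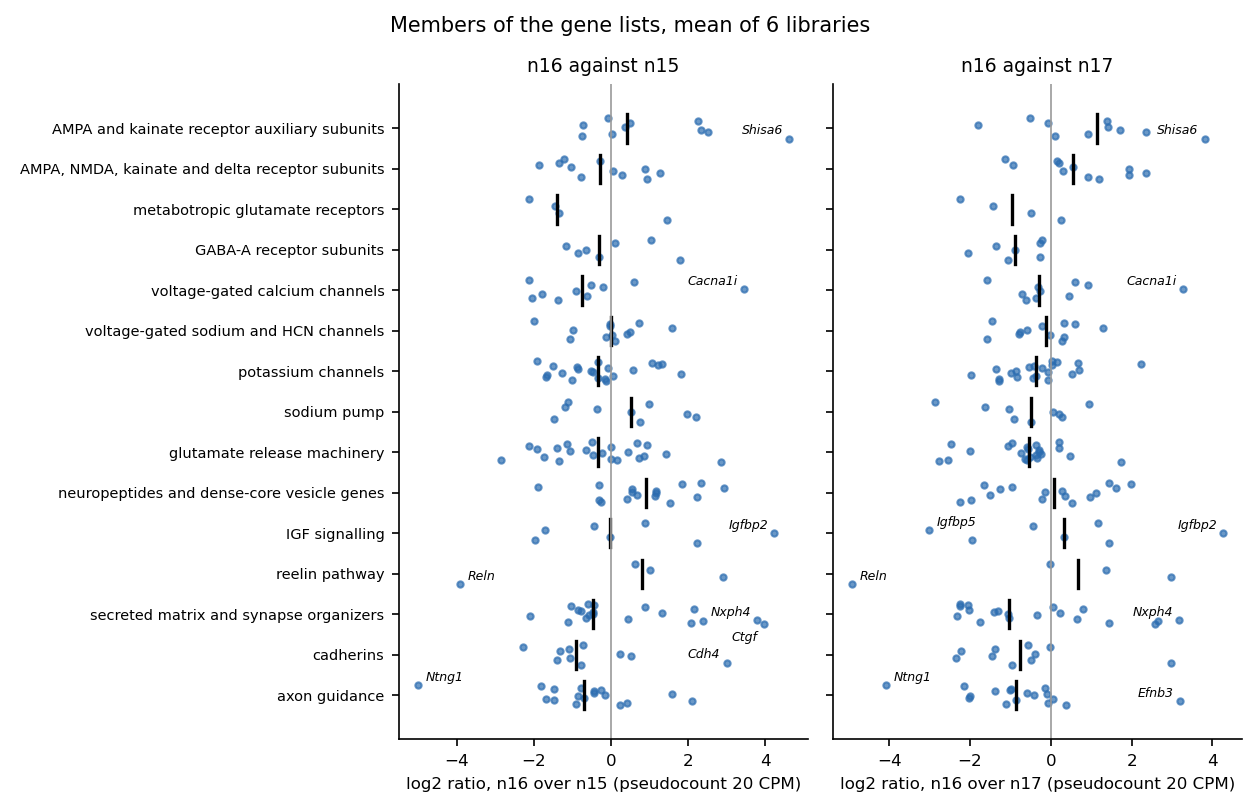
Log2 ratio of the mean level in n16 to that in n15 (left) and n17 (right) for the measured members of each gene list, after adding 20 CPM. Each point is 1 gene, the black bar is the list median and genes beyond 3 in either direction are named. Members of most lists lie on both sides of 0. The auxiliary glutamate receptor subunits, the reelin pathway and the neuropeptide and dense-core vesicle genes have their median above 0 in both panels. The median of all measured genes was -0.21 against n15 and 0.05 against n17. Against n17, the median of the neuropeptide and dense-core vesicle genes was 0.07, close to that of all measured genes.

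Across the whole transcriptome, n16 resembled n17 more than n15. The correlation of log2 levels over 7021 genes was 0.833 with n17, the highest of the 17 other neuronal clusters, and 0.654 with n15, the lowest. These values describe clusters that differ in cell number and depth, and n15 had only 151751 UMIs. Over the 18 clusters, the genes whose mean level followed Eomes most closely among 3595 considered were Tfap2c, Nmb, Clic1, Hapln1 and Igf1, with correlations of 0.989, 0.986, 0.964, 0.959 and 0.957. In n16 these were at 89.6, 2321, 225, 244 and 644 CPM, in each case the highest mean of the 18 clusters.

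In single cells, the 2 highest leading genes were each found in most of the cluster. Ly6g6e was detected in 107 of the 116 cells and Igfbp2 in 104, both together in 97 and at least 1 of them in 114. Eomes was detected in 52 cells, Cdhr1 in 53 and either in 77. After each cell was thinned to 500 UMIs, 77.6% of n16 cells held Ly6g6e (exact 95% binomial interval 68.9 to 84.8%). The share was 0.0% in n15, 0.755% in n17 and 0.433% in the 15 neuronal clusters outside the M/T class. Without thinning, 92.2%, 3.33%, 2.05% and 0.800% of the cells held it, in the same order. The medians were 1092.5, 1507, 865 and 998 UMIs per cell. Eomes was at 19.8% after thinning (13.0 to 28.3%), against 12.2% in n15 (6.26 to 20.8%), 4.96% in n17 and 0.633% outside the class. The intervals of n16 and n15 overlapped. Its unthinned shares were 44.8%, 23.3%, 12.9% and 0.694%, in the same order.

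Slc17a6 and Slc17a7 occurred in 44 and 26 cells and together in 11. After thinning they were found in 14.7% and 12.9% of n16 cells, against 0.0% and 32.2% in n15 and 2.59% and 58.0% in n17. Reln was found in 3.45% of thinned n16 cells (0.947 to 8.59%), in 26.7% of n15 cells and in 49.2% of n17 cells. The interval of n16 included the 1.3% of neurons outside the M/T class. Intervals on these shares cover counting error only.

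Genes of other cell types were present in n16, and their part in the results was not tested. The summed level of 14 markers of GABAergic interneurons was 1279 to 2319 CPM in the n16 libraries, against 9087 CPM over all neurons, and 0 of the 14 were undetected. The GABA synthesis gene Gad1 was found in 12.1% of thinned n16 cells and 31.3% of neurons outside the M/T class. The 8 markers of olfactory ensheathing cells summed to 1230 to 4652 CPM, highest in naris occluded 1, whose deepest cell alone had them at 10182 CPM. Of 10 microglia and macrophage markers, which summed to 64.3 to 273 CPM, 4 were at 0 (Siglech, Tmem119, Cd74 and Mrc1). The 8 markers of olfactory sensory neurons summed to 409 to 1855 CPM, with Cnga2 and Rtp1 at 0. The 8 markers of the oligodendrocyte lineage, of which 1 was at 0, summed to 922 to 2319 CPM. Their mean of 1552 ± 568 CPM compared with 1385 CPM in n15, 1330.0 CPM in n17 and 1564 CPM over all neurons. Astrocyte markers summed to 514 to 1439 CPM, immature neuron markers to 273 to 1451 CPM, vascular and mesenchymal markers to 136 to 493 CPM and red blood cell markers to 0 to 238 CPM.

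The n16 cells fell into deep and shallow ones, and the level of several genes differed with depth. The median was 1092.5 UMIs, with a range of 526 to 14633. The 60 cells with at least 1000 UMIs reached 2172 UMIs at the median, of which 9.53% were mitochondrial, and the 56 below had 728 UMIs and 21.0%. Eomes was at 838 ± 327 CPM in the deep cells and 271 ± 236 CPM in the shallow ones, higher in the deep cells in 6 of 6 libraries. Vsnl1 (1852 ± 920 against 501 ± 374 CPM) and Neurod1 (570.2 ± 576 against 163 ± 150.4 CPM) were higher in the deep cells in 5 of 6 libraries.

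Other leading genes ran the other way. Ly6g6e was at 3565 ± 1329.8 CPM in the deep cells and 5958 ± 1713 CPM in the shallow ones, higher in the shallow cells in 6 of 6 libraries. Igfbp2 (2427 ± 798 against 4859.9 ± 2537 CPM), Nxph4 (516 ± 70.3 against 1249 ± 671 CPM) and Ctgf (367 ± 244 against 1069 ± 622 CPM) were higher in the deep cells in only 1 of 6 libraries, while Cck differed little (3678 ± 1538 against 4038 ± 1268 CPM). In the authors' clustering of the whole bulb, 47 of the 116 cells belonged to cluster N15 (median 745 UMIs, 23.4% mitochondrial), 42 to N14 (median 3195.5 UMIs, 7.83%) and 14 to N12. Depth, mitochondrial share and these genes moved together, and which of them accompanies a difference between cells cannot be told apart here.

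**Figure D3:**
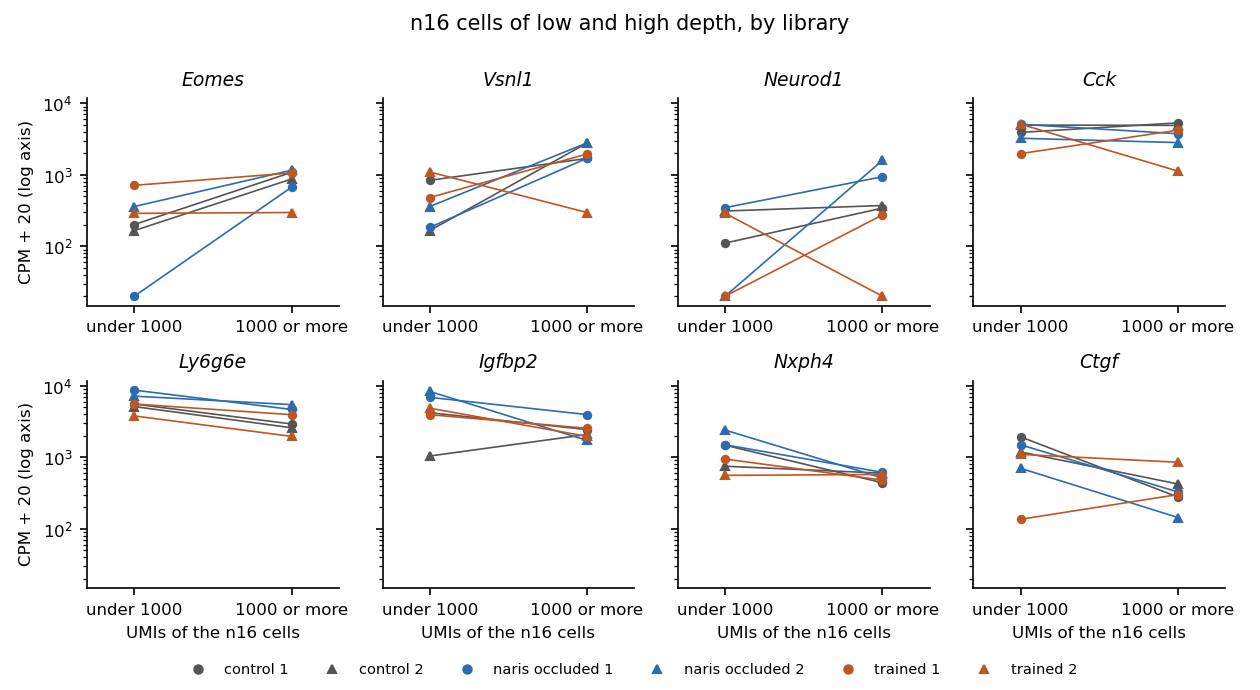
Level of 8 genes in n16 cells under 1000 UMIs (left of each panel) and with 1000 or more (right), as CPM + 20 on a log axis. Each line joins the 2 values of 1 library, coloured by condition. For Eomes all 6 lines run from a lower level in the shallow cells to a higher one in the deep cells, and for Ly6g6e all 6 run the other way.

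The share of n16 cells among the neurons passed the test in 0 of the 3 comparisons of conditions. These cells made up 0.565% and 0.615% of the neurons in control 1 and 2, 0.738% and 0.615% in naris occluded 1 and 2, and 0.415% and 0.288% in trained 1 and 2. As shares of the M/T cells these were 9.29% and 9.05%, 11.8% and 14.5%, and 10.6% and 6.45%. Both trained libraries had the lowest shares of neurons. With edgeR's quasi-likelihood test, the log2 change was 0.20 ± 0.38 (SE) in naris occlusion against control (adjusted p = 0.795), -0.68 ± 0.40 in training against control (adjusted p = 0.333) and -0.88 ± 0.40 in training against occlusion (adjusted p = 0.0818).

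**Figure D4:**
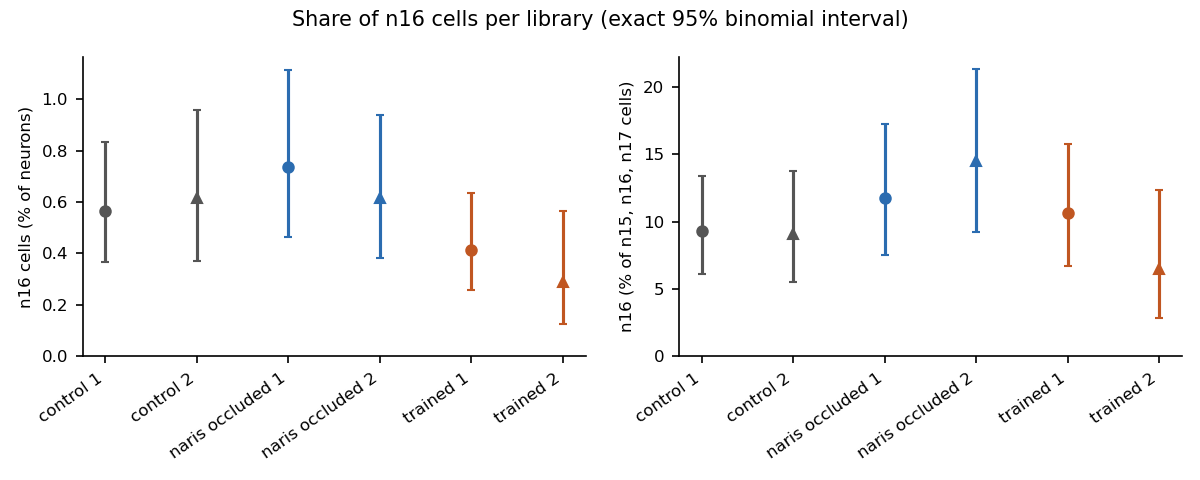
Share of n16 cells among the neurons of each library (left) and among its M/T cells (right), in percent. Points are libraries and error bars are exact 95% binomial intervals, which overlap across the 3 conditions.

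Gene levels in n16 were compared between conditions on the summed counts with edgeR's quasi-likelihood test and Benjamini-Hochberg adjustment over the 921 genes that passed the filter on low counts. With 2 libraries in each condition, p-values rest on the spread of pools that also differ in sex. The values of these comparisons are CPM of the tested genes after TMM scaling, and lie above the CPM used for the clusters. In naris occlusion against control, 7 genes passed an adjusted p of 0.05 (0.76%), of which 3 were higher (0.326%) and 4 lower (0.434%). In simulated counts of this size the test recovered 16.5% of genes changed 1 log2 unit and 80% of genes changed 2. These counts were drawn per library and not per cell, so they leave out the weight of single deep cells. The recovery thus holds for the simulated counts only. In training against control 0 passed (0.0%), with 41 at an unadjusted p below 0.05, and in training against occlusion 3 passed (0.326%), all lower in training. DESeq2 called 0 genes in each comparison, with 9, 8 and 17 at an unadjusted p below 0.05.

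Nmb fell after naris occlusion, with a change of -1.76 ± 0.36 (SE) on the log2 scale (edgeR adjusted p = 0.000822). Its TMM CPM was 3635 and 7333 (control), 1494 and 1775 (naris occluded) and 3254 and 5477 (trained). Both occluded libraries lay below the other 4. An Nmb UMI was found in 17 of 25 and 14 of 19 control cells, in 11 of 22 and 6 of 21 occluded cells and in 13 of 21 and 5 of 8 trained cells. The median depth was higher in the occluded libraries (1728.5 and 1311 UMIs) than in the controls (874 and 1102). Nmb was lower in deep than in shallow n16 cells (1873 ± 1361 against 3132 ± 1725 CPM, higher in the deep cells in 1 of 6 libraries), and the part of depth in its change was not tested. Single cells weighed on these levels, since the largest held 45 of 94 and 80 of 212 Nmb UMIs in the controls. It held 14 of 51 and 18 of 43 in the occluded libraries, and 22 of 90 and 11 of 24 in the trained ones. On the scale of CPM over all genes, where these libraries were at 2236 and 4544 CPM (control) and 875 and 1122 CPM (naris occluded), the level without the largest cell was 1504 and 3795 CPM in the controls and 848 and 791 CPM after occlusion. Without the deepest cell of each library the change was -1.64 (adjusted p = 0.0600), and the call was also lost without control 1, control 2, naris occluded 1 or naris occluded 2 (adjusted p of 0.0741, 0.995, 0.578 and 0.333). The change was -2.18, -1.14, -1.64 and -1.88 in these fits, so that its size depended on control 2.

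Neurod1 rose after occlusion, by 1.83 ± 0.39 on the log2 scale (edgeR adjusted p = 0.00148). Its TMM CPM was 425 and 553 (control), 1464 and 2105 (naris occluded) and 362 and 228 (trained), and its UMIs numbered 11 and 16 (control), 50 and 51 (naris occluded) and 10 and 1 (trained). The occluded libraries lay above the other 4, and it was found in 10 of 22 and 10 of 21 occluded cells against 4 of 25 and 6 of 19 control cells. In training against occlusion its change was -2.36 ± 0.49 (edgeR adjusted p = 0.00137). Without the deepest cells, the change against control was 1.67 (edgeR adjusted p = 0.0600), and the adjusted p of training against occlusion was 0.0145. The call against control was lost without either control library or either occluded library (adjusted p of 0.999, 0.277, 0.0971 and 0.385), with changes of 1.66, 2.06, 2.07 and 1.55, and that of training against occlusion without naris occluded 2 or trained 1 (0.146 and 0.117, with changes of -2.15 and -3.29). Neurod1 was also higher in deep than in shallow cells, and the occluded libraries held 15 of 22 and 12 of 21 cells with at least 1000 UMIs against 10 of 25 and 10 of 19 in the controls. The part of depth in its change was not tested. Among cells with at least 1000 UMIs alone, Nmb and Neurod1 were both called again (adjusted p of 0.00266 and 0.00335).

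The other calls against control were smaller in count. Pantr1, a long noncoding RNA, rose by 1.64 ± 0.42 on the log2 scale (adjusted p = 0.0212), with 9 and 15 (control), 35 and 43 (naris occluded) and 10 and 1 (trained) UMIs. Pcdh7, a protocadherin gene, changed by -2.71 ± 0.69 (adjusted p = 0.0212), with 19 and 13 (control), 3 and 2 (naris occluded) and 8 and 3 (trained) UMIs, and Dclk1, a microtubule-associated kinase gene, by -1.98 ± 0.53 (adjusted p = 0.0277), with 26 and 22 (control), 10 and 3 (naris occluded) and 19 and 1 (trained) UMIs. Both were lower in the occluded libraries than in the controls. Ptgds changed by 1.39 ± 0.38 and also passed, and was chosen for naming after its values were seen. For Ptgds, 65 of 83 UMIs of naris occluded 1 lay in 1 cell of that library, its deepest, and without the deepest cells its change was 0.21 (adjusted p = 0.994). With the replicate number, which stands for sex, as a block its adjusted p was 0.188. All 7 calls were lost without the deepest cells, and each was lost without control 1 or control 2. In training against occlusion, H3f3b, a histone gene whose reads may be shared with near-identical copies, changed by -1.88 ± 0.42 (adjusted p = 0.00469), and Pantr1 by -2.01 ± 0.51 (adjusted p = 0.0283). With the same block the adjusted p of Pantr1 was 0.136. Both calls held without the deepest cells and were lost without any 1 of the libraries other than trained 2.

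**Figure D5:**
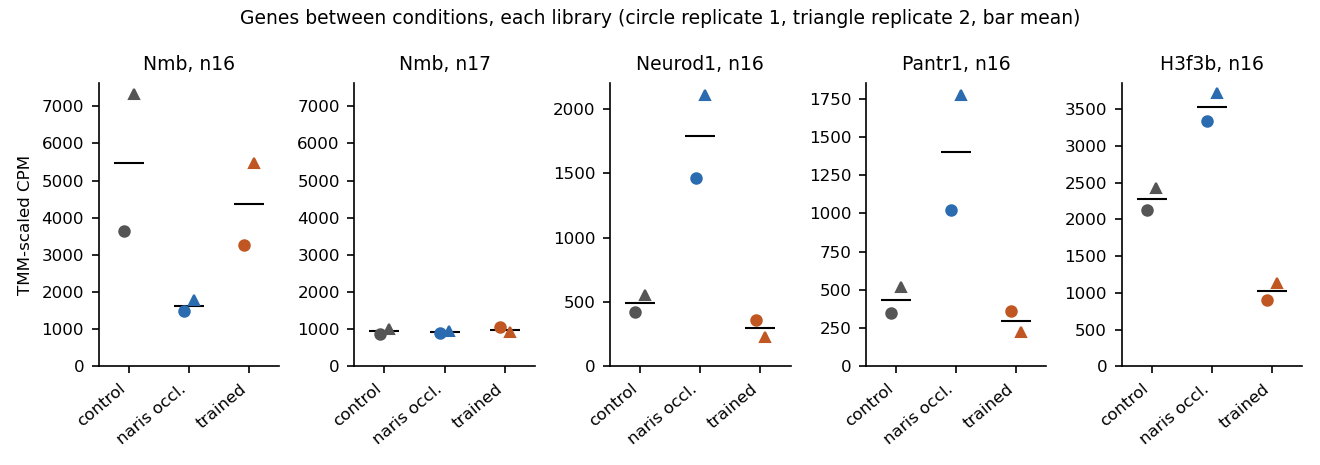
TMM-scaled CPM of Nmb, Neurod1, Pantr1 and H3f3b in n16, and of Nmb in n17, by condition on linear axes from 0. Each point is 1 library (circles for replicate 1, triangles for replicate 2) and each bar is the mean of 2 libraries. The 2 naris-occluded libraries lie below the other 4 for Nmb in n16 and above them for Neurod1, while the Nmb level of n17 is similar in the 3 conditions.

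The markers Eomes and Cdhr1 and the leading genes Ly6g6e and Igfbp2 did not pass in any of the 3 comparisons. For Eomes the change in naris occlusion was -0.00 ± 0.33 (adjusted p = 0.999), for Cdhr1 -1.05 ± 0.37 (adjusted p = 0.272), for Ly6g6e 0.74 ± 0.35 (adjusted p = 0.763) and for Igfbp2 0.58 ± 0.35 (adjusted p = 0.900). The genes with the smallest p in training against control were Gm525, Psmb5 and R3hdm1, at -2.01 ± 0.60, -2.92 ± 0.88 and 1.76 ± 0.53, with an adjusted p of 0.258 each. None of the 25 activity-regulated genes, such as Fos, had the counts to be tested. Their summed level was 571 and 472 CPM in the control, 532 and 626 CPM in the naris-occluded and 980.1 and 273 CPM in the trained libraries, from 2 to 47 UMIs in each.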

How the data were processed

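Single-cell RNA was captured with the 10x Genomics 3′ v2 chemistry, and the submitters' processing notes name the genome mm10, Cell Ranger 2.0.0 and Seurat 2.2.1. The authors deposited raw UMI counts of 18560 genes in 52549 barcodes, without normalization, and an annotation of 51426 cells with the library, the whole-bulb cluster, the neuronal cluster and the mitochondrial share as a fraction. Doublets had been removed by the authors. For the trained libraries, the library prefixes of the barcodes are swapped (1 for 2) relative to the annotation's library column, and the column was used.

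Counts were summed per cluster and library, and levels are CPM over all genes, with 20 CPM added for log2 ratios. Conditions were compared with edgeR 4.0.16 (quasi-likelihood, robust, TMM, filterByExpr, all 6 libraries) in R 4.3.3, and cells per library with the same test and the library's neurons as offset. Levels of clusters were not tested. The methods state no test of genes between conditions within this cluster, so the design is that of this re-analysis. Nothing in the labels separates the mice of a pool, so p-values measure the spread between pools. The test was also run on simulated counts of the 921 genes, drawn per library from the means, library sizes and spread of the real fit. The spread was the fitted trend over genes and not that of each gene, and single cells were not simulated. In these simulated counts, 200 genes changed by 1 log2 unit gave 0 false calls and 200 changed by 2 gave 11. The false calls to be expected in the real counts were not measured by this.

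Genes named were the 2 markers, the 15 leading genes, 12 genes above and 12 below both other M/T clusters, 5 genes most like Eomes, up to 4 members of each of 26 gene lists with the highest level and with the largest differences, and the genes with the smallest p in each comparison of conditions. Some genes that this rule names are not reported here. The cluster, the lists and the genes were chosen with earlier results of these data known. Alternatives (46, and 5 added after seeing the data) were DESeq2 1.42.0, its size factors, no filter on low counts, a replicate block, fewer libraries, cells with at least 1000 UMIs, other totals and pseudocounts of 5 and 50 CPM. Deviations of same-numbered libraries from their condition means had correlations of 0.096, -0.05 and -0.13 over 921 genes. With few UMIs per gene, these values cannot show that the number, which stands for sex, has no part. The main fit had no term for the number, and the replicate block was run as an alternative. Promoters came from RefSeq, build GRCm38.p6. Exact binomial intervals (95%) cover counting error only.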

Additional observations from a re-analysis of the deposited data

Results flagged for a closer look

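The change of Nmb in naris occlusion against control differed between 2 M/T clusters. It was -1.76 ± 0.36 (SE) on the log2 scale in n16 and -0.01 ± 0.21 in n17, and the difference was -1.81 (edgeR interaction term, adjusted p = 0.00702, 1 gene called of 921). The difference was lower in n16 in all 9 settings run. The Nmb level of n17 was 875 and 1006 (control), 909 and 961 (naris occluded) and 1062 and 921 (trained) TMM CPM, so that its libraries hardly differed. This test was added after the data were seen. It took the n16 and n17 sums of the same 6 libraries as independent, with no term for the library. Its p-values therefore leave out that the 2 clusters share pools. Without the deepest n16 cell of each library the difference was -1.65 (adjusted p = 0.0947), and among cells with at least 1000 UMIs it was -2.01 (adjusted p = 0.00407). With 1 library left out it ranged from -1.99 to -1.35, with adjusted p from 0.00612 (without naris occluded 2) to 0.622 (without control 2). It passed the threshold only without naris occluded 2.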

How the results depend on the processing

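Of the 7 genes called in naris occlusion against control, the count was 0 with DESeq2, 1 with no filter on low counts, 0 with only the 4 libraries compared, 2 with cells of at least 1000 UMIs and 0 without the deepest cell of each library. The 3 genes called in training against occlusion were 0 with DESeq2 and 1 with no filter. With 1 library left out, the 3 counts of calls ranged from 0 to 10, from 0 to 5 (training against control) and from 0 to 4. Occlusion against control had 0 calls without control 1, control 2 or naris occluded 1, and 2 without trained 1, and without naris occluded 2 its 7 calls were all higher (7 higher and 0 lower, where 3 and 4 stood with all libraries). Training against control had 5 without trained 1 and 2 without trained 2, and training against occlusion had 0 without trained 1 and 1 without control 1, control 2 or naris occluded 1. With the replicate block, the counts were 7, 0 and 3, while Ptgds (adjusted p = 0.188) and, in training against occlusion, Pantr1 (adjusted p = 0.136) lost their call. The cause of these changes was not tested. The log2 changes of cell numbers kept their sign in every alternative. In those that kept all 6 libraries, none passed the threshold (edgeR or DESeq2 adjusted p from 0.134 to 0.959). With 1 library left out, the change ranged from 0.07 to 0.33 in occlusion against control. It ranged from -1.02 to -0.50 in training against control and from -1.22 to -0.69 in training against occlusion. Genes at least 4-fold above all other neuronal clusters numbered 12 to 19. Depth limits the levels, since 1 UMI was 136 CPM in trained 2.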
